A study of Mus musculus with 31 samples.

Results

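The 8 genes described here encode chemokine receptors that steer dendritic cells and their precursors: Ccr1, Ccr2, Ccr7, Cx3cr1, Cxcr2, Cxcr3 and Cxcr4, and Ccrl2, a relative of the family that binds ligand without the usual G protein signal. They were listed by name, with earlier results of these data known, and are 8 of the 29120 gene IDs counted in these libraries. In dendritic cells treated with LPS, Ccr7 and Ccrl2 were higher and Ccr2 and Cxcr4 were lower than in naive cells, whichever genotype label the cells carried. Ccr1 and Cx3cr1 did not pass the test, Cxcr2 passed it under 1 label, and Cxcr3 was close to 0 in all dendritic cell libraries. No member passed the test between genotypes in dendritic cells or in spleen.

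Chemokine receptors are membrane proteins with 7 helices that couple to inhibitory G proteins and turn a gradient of a secreted chemokine into directed movement. Ccr2 is known for bringing monocytes and their offspring out of the marrow and into inflamed tissue, while Ccr7 guides mature dendritic cells along its ligands Ccl19 and Ccl21 into lymphatic vessels and the T cell zones of lymph node and spleen. A switch from receptors for inflammatory chemokines to Ccr7 is a textbook feature of dendritic cell maturation.

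The libraries came from C57BL/6 mice, either wild-type or Gpr34-/-, which lack a receptor for lysophosphatidylserine. Dendritic cells were grown for 10 days from the marrow of male mice 8 to 16 weeks old, in medium holding GM-CSF from a secreting cell line. Those of the LPS groups received this bacterial cell wall component on day 11 for 8 h. No harvest time of naive cells is given here, so a difference in time in culture cannot be told apart from LPS. There were 3 naive and 3 LPS-treated libraries per genotype label, and 10 wild-type and 9 knockout spleens from mice of 12 weeks that received no LPS. The labels used here state neither how the Gpr34 allele was made, nor the LPS dose, nor whether cultures of a group came from separate mice. P-values therefore measure only the spread between these libraries, part of which may be technical. GM-CSF cultures of marrow hold macrophage-like cells beside dendritic cells, and movement of cells was not measured.

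Depth per library ran from 38998746 to 74164853 total counts for dendritic cells, and for spleens from 56834377 to 133277070. Gpr34, the targeted gene, had 199 to 324 counts in naive and 65 to 125 in LPS wild-type dendritic cells. In cells labelled knockout it had 0, 120 and 4 counts in naive libraries 2, 3 and 4, and 0, 117 and 104 after LPS. Naive library 3 labelled knockout, the deepest dendritic cell library, thus lay below the naive wild-type range. Because 3 of these 6 libraries hold over 100 Gpr34 counts, all 6 are called libraries labelled knockout, and results are also given without those 3. Gpr34 had 308 to 986 counts in wild-type spleens and 42 to 156 in knockout spleens. Naive library 3 labelled knockout stood apart from the other naive ones: on the first principal component of log2 CPM it lay at -32.6, against -84.8 to -75.9 for the other naive libraries and 69.6 to 76.8 for the LPS-treated ones.

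Defining markers were checked against the labels. Of 10 dendritic cell markers 9 had a mean of at least 1 CPM (read counts scaled to a common library size, with TMM factors) in each dendritic cell group; Cd209a did not. All 10 maturation markers did, and their summed level was 6185 to 7578 CPM in 5 naive libraries, 16970 CPM in naive library 3 labelled knockout, and 28820 to 36900 CPM after LPS. Markers of other cell types were also present, and their sums moved with LPS. The 10 macrophage markers summed to 3201 to 3574 CPM in naive and 1876 to 3293 CPM in LPS wild-type libraries, and to 1425 to 4507 and 1255 to 3037 CPM under the knockout label. Of the 7 mast cell and basophil markers, 5 reached a mean of 1 CPM in each wild-type group and 4 in each group labelled knockout. The 7 summed to 55.8 to 62.9 CPM in naive and 180.0 to 199.5 CPM in LPS wild-type libraries. Under the knockout label they summed to 29.8 to 62.0 and 152.9 to 191.2 CPM. The part of such shifts in the receptor changes was not tested. The 10 T cell markers summed to 32.8 to 35.1 CPM in naive and 48.4 to 59.9 CPM in LPS wild-type libraries, with 3 and 4 of them at a mean of at least 1 CPM. Under the knockout label the T cell sums were 32.9 to 42.3 and 52.7 to 64.1 CPM, and Il7r made up most of each sum, with group means of 29.8 to 49.5 CPM. The T cell gene Cd3e was at 0 in all wild-type dendritic cell libraries and reached at most 11 counts in those labelled knockout, and the B cell gene Cd79a did not exceed 18 counts.

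Ccr7, the receptor for Ccl19 and Ccl21, lies on chromosome 11 (GRCm38, 99144196 to 99155077, minus strand). It stood at 700.1, 789.7 and 713.6 CPM in naive wild-type libraries 1, 2 and 4 and at 1554, 1442 and 1409 CPM in LPS wild-type libraries 1, 2 and 3. Naive libraries 2, 3 and 4 labelled knockout held 681.9, 1042 and 607.1 CPM, and LPS libraries 2, 3 and 4 held 1309, 2004 and 1452 CPM. Every LPS library lay above every naive one, and naive library 3 labelled knockout was the highest of the naive ones. The mean rose from 734.5 ± 48.3 to 1468 ± 75.8 CPM in wild-type (SD, n = 3 each). That is 2.0 times as much; on the log2 scale edgeR's quasi-likelihood test put the change at 1.0 ± 0.20 (SE) with a Benjamini-Hochberg adjusted p of 0.00286, and at 1.03 ± 0.20 (SE) with an adjusted p of 0.00305 under the knockout label. Ccr7 was already abundant before LPS: per kilobase of transcript it ranked 77 of 12254 genes in naive wild-type cells, and 57 of 12059 after LPS. In such bulk samples a change in RNA per cell cannot be told apart from a change in the share of cells that express the gene.

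Ccrl2, which holds the protein chemerin at the cell surface, rose more steeply from a low level. Naive wild-type libraries 1, 2 and 4 held 3.23, 5.58 and 4.75 CPM, and LPS wild-type libraries 1, 2 and 3 held 73.5, 58.5 and 84.6 CPM. Under the knockout label the naive libraries held 5.12, 9.02 and 3.09 CPM and the LPS libraries 74.6, 66.2 and 72.7 CPM. Naive and LPS libraries did not overlap under either label. Ccrl2 rose 16.0-fold in wild-type, or 4.00 on the log2 scale (SE 0.36, adjusted p = 1.61e-05 in edgeR's quasi-likelihood test), and 12.3-fold under the knockout label, or 3.62 on the log2 scale (SE 0.35, adjusted p = 3.93e-05). With the 3 libraries that go against their label left out, which leaves 1 LPS library under it, the latter value was 4.14 for Ccrl2.

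Ccrl2 lies on chromosome 9 (GRCm38, 111054486 to 111057519, minus strand). RefSeq promoter windows, on GRCm38.p6, were found for 7 of the 8 members, 9 windows in all with 250 bases before a start site each, and none was found for Ccr7. Both strands were searched for a kB motif, GGANTTTCC, which NF-kB proteins bind, and for an interferon-stimulated response element, GAAANNGAA. The kB letters occurred in 1 of the 3 Ccrl2 windows and in no other member's, against 1.07% of 32851 promoter windows. Shown here are that Ccrl2 window without its last base, which lies in the annotated first exon, from chr9:111057520-111057768 (minus strand, the match at position -68 from the start site in capitals), and, for a member that fell after LPS and holds neither motif, the window of Cxcr4 from chr1:128592300-128592549 (minus strand).
Ccrl2: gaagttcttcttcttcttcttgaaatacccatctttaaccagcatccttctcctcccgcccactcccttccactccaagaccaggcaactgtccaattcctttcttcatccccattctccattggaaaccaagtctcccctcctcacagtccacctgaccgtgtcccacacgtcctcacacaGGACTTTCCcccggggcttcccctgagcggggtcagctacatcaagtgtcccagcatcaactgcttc
Cxcr4: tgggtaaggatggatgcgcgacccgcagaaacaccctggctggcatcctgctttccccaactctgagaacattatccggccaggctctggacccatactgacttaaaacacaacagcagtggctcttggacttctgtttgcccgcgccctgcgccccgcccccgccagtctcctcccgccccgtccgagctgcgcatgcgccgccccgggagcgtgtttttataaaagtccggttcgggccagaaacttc
The GC content was 53.8% in the Ccrl2 stretch and 61.2% in that of Cxcr4. A match describes the letters only, and binding was not measured.

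Cxcr4, the receptor for Cxcl12 that holds leukocytes in the marrow, lies on chromosome 1 (GRCm38, 128588199 to 128592293, minus strand). It stood at 83.7, 88.3 and 94.0 CPM in naive wild-type libraries 1, 2 and 4 and at 19.3, 17.5 and 21.8 CPM in LPS wild-type libraries 1, 2 and 3. Naive libraries 2, 3 and 4 labelled knockout held 104.2, 90.3 and 84.3 CPM, and the LPS libraries 20.9, 43.8 and 27.4 CPM. All LPS libraries lay below all naive ones, and LPS library 3 labelled knockout was the highest of the LPS ones. Cxcr4 fell by 2.18 on the log2 scale in wild-type (SE 0.23, adjusted p = 4.67e-05, edgeR's quasi-likelihood test) and by 1.60 under the knockout label (SE 0.22, adjusted p = 0.00042).

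Ccr2, the receptor for Ccl2, Ccl7 and Ccl12 and a mark of cells of monocyte origin, changed most among the members. Naive wild-type libraries 1, 2 and 4 held 133.9, 109.8 and 87.7 CPM, while LPS wild-type libraries 1, 2 and 3 held 2.28, 1.57 and 2.94 CPM. Naive libraries labelled knockout held 109.3, 26.5 and 115.5 CPM, with library 3 the low one, and the LPS libraries 2.54, 2.76 and 2.64 CPM. No LPS library came near a naive one, and 70 to 138 counts per library remained after LPS. Ccr2 fell 49.2-fold in wild-type (log2 fold change -5.62, SE 0.53, adjusted p = 2.44e-05, edgeR's quasi-likelihood test) and 31.6-fold under the knockout label (-4.98, SE 0.51, adjusted p = 6.01e-05). Without naive library 3 labelled knockout the Ccr2 value under that label was -5.42. The sum of 8 monocyte markers, Ccr2 not among them, was higher after LPS in wild-type, at 174.4 to 220.3 CPM against 99.9 to 103.2 CPM, with 6 of the 8 at a mean of at least 1 CPM in both groups. In naive library 3 labelled knockout, the low one for Ccr2, that sum was 49.7 CPM, the lowest of the naive libraries.

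Ccr2 lies on chromosome 9 (GRCm38, 124101950 to 124113557, plus strand), and the sources used here do not say how reads shared by related receptor genes were counted. Its RefSeq promoter window holds 1 interferon-response match on the minus strand, at position -86; 7.13% of promoter windows hold one, and no other member's does. The stretch is shown because Ccr2 had the steepest fall; it comes from chr9:124102087-124102115 (plus strand, matched letters in capitals), and a longer annotated Ccr2 transcript has it within its first exon.
Ccr2: tatctccgccTTCTCTTTCtgcaggaaac

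**Figure D1:**
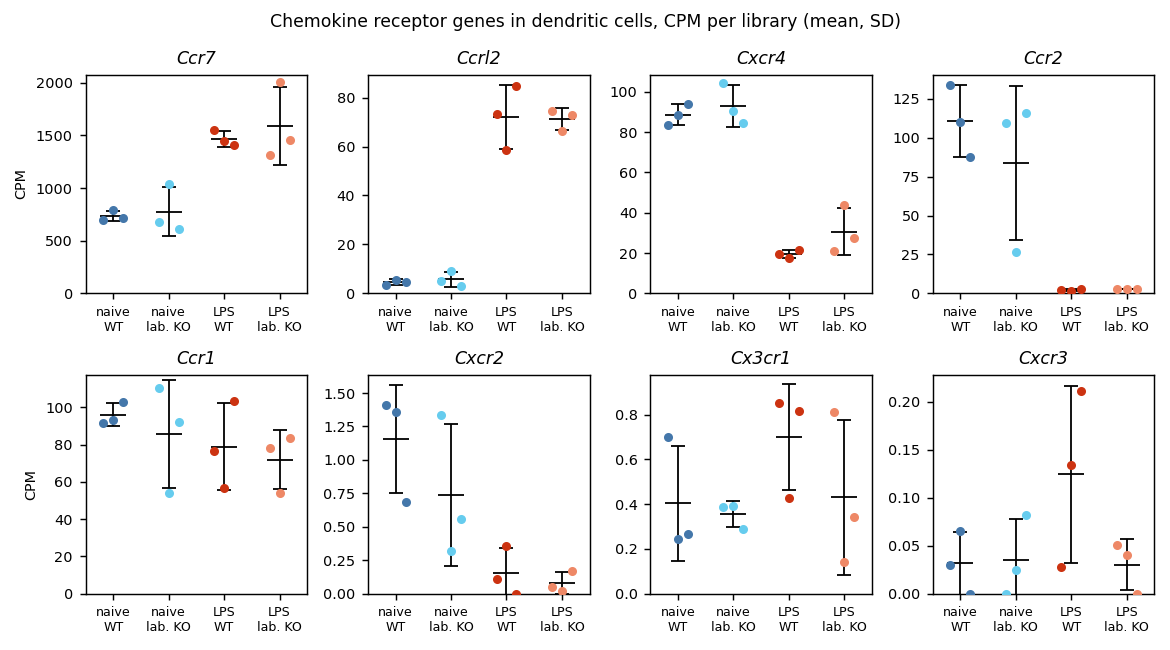
Level of each receptor gene in CPM (linear axes from 0) in the 12 dendritic cell libraries, by treatment and genotype label; points are libraries, and lines are the group mean with its SD (n = 3). Ccr7 and Ccrl2 are higher and Cxcr4 and Ccr2 lower in every LPS library than in every naive one, while Ccr1 overlaps.

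Ccr1, a receptor for Ccl3, Ccl5, Ccl6 and Ccl9, lies on chromosome 9 (GRCm38, 123962124 to 123968692, minus strand) and was the inflammatory receptor that stayed abundant. It stood at 91.8, 93.2 and 103.1 CPM in naive and 76.6, 57.0 and 103.4 CPM in LPS wild-type libraries. Libraries labelled knockout held 110.6, 54.2 and 92.2 CPM when naive and 78.2, 53.9 and 83.8 CPM after LPS. Naive and LPS libraries overlapped under both labels. The log2 fold change was -0.28 in wild-type (95% interval -0.88 to 0.32, adjusted p = 0.469, edgeR's quasi-likelihood test) and -0.25 under the knockout label (adjusted p = 0.538). On library sizes without TMM factors the wild-type ranges of Ccr1 did not overlap, at 106.3 to 118.0 CPM in naive against 50.0 to 87.6 CPM in LPS libraries, and the log2 fold change was -0.70 (adjusted p = 0.0539).

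Cxcr2, the receptor for Cxcl1, Cxcl2, Cxcl3 and Cxcl5 best known from neutrophils, lies on chromosome 1 (GRCm38, 74153989 to 74161246, plus strand). It was scarce: 95, 83 and 49 counts in naive and 4, 16 and 0 in LPS wild-type libraries, and 76, 26 and 27 in naive and 2, 1 and 8 in LPS libraries labelled knockout. LPS libraries lay below naive ones under both labels. The log2 fold change was -2.82 in wild-type (SE 1.01, adjusted p = 0.0512, edgeR's quasi-likelihood test) and -3.15 under the knockout label (SE 1.05, adjusted p = 0.0446). The interaction of Cxcr2 was -0.33 (SE 1.34), so the labels were not shown to differ. At these counts the call depended on the setting: in wild-type, DESeq2 gave Cxcr2 an adjusted p of 0.015, and under the knockout label leaving out naive library 2 gave 0.156. The summed level of 10 neutrophil markers, of which 4 reached a mean of 1 CPM in naive and 5 in LPS wild-type cells, was 36.9 to 52.4 CPM and 49.0 to 63.4 CPM there.

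Cx3cr1, the receptor for the membrane-bound chemokine Cx3cl1, and Cxcr3, the receptor for Cxcl9, Cxcl10 and Cxcl11 on activated T cells, were barely present. Wild-type libraries held 15 to 47 Cx3cr1 counts when naive and 19 to 31 after LPS; libraries labelled knockout held 14 to 32 and 7 to 32. The groups overlapped, and the log2 fold change in wild-type was 0.78 (95% interval -0.63 to 2.20, adjusted p = 0.387, edgeR's quasi-likelihood test). Its annotated span on chromosome 9 (GRCm38, 119901616 to 120069879, minus strand) overlaps Wdr48, Gorasp1, Ttc21a, Csrnp1 and Xirp1, so counts this low may hold reads of those genes. Cxcr3, on chromosome X (GRCm38, 101731535 to 101734269, minus strand), had 0 to 7 counts per library in dendritic cells and did not pass the filter. It was at 0 in naive wild-type library 4, naive library 2 labelled knockout and LPS library 4 labelled knockout, where 3 counts, the limit that a count of 0 allows, would be 0.0421, 0.0527 and 0.0639 CPM.

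Of the 7 members tested in wild-type cells, 2 were higher and 2 lower after LPS. Among all 16965 genes tested 33.9% were called, 18.1% as higher and 15.8% as lower. Under the knockout label 2 were higher and 3 lower, against 28.7% of all genes, 15.3% as higher and 13.4% as lower. Naive and LPS ranges did not overlap for 2 members that were higher and 3 that were lower, under either label. Of all genes 50.9% had such ranges in wild-type, 25.6% higher and 25.3% lower, and 41.7% under the knockout label, 21.3% higher and 20.4% lower. The median log2 fold change of the 7 was -0.28 and -0.25, and that of all genes -0.03 under both. Without composition factors the median of all genes moved to -0.44 in wild-type and -0.35 under the knockout label, and the fitted values beside those medians were 0.59 and 0.71 for Ccr7, and -6.04 and -5.32 for Ccr2.

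**Figure D2:**
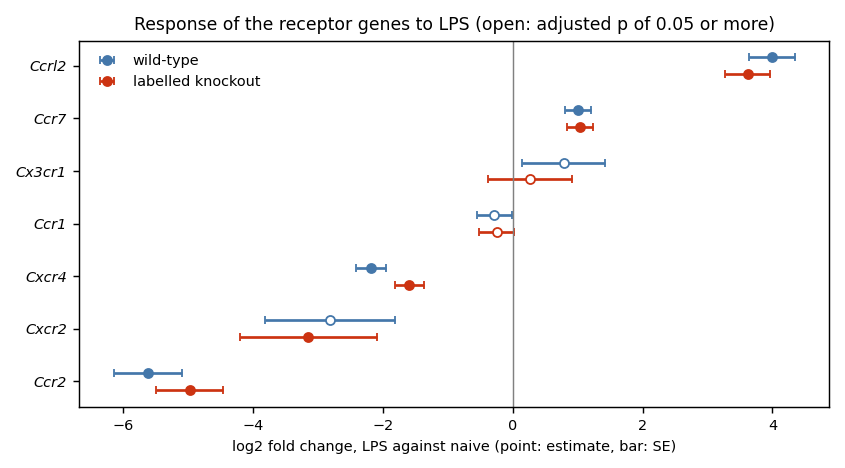
Log2 fold change of 7 receptor genes between LPS-treated and naive dendritic cells (points, with SE as bars) in wild-type and in libraries labelled knockout; filled points have an adjusted p under 0.05. Ccrl2 and Ccr7 lie above 0 and Cxcr4 and Ccr2 below it under both labels, and Cxcr2 is filled under the knockout label.

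Set against each other per kilobase, the order of the levels in naive wild-type cells was Ccr7, Cxcr4, Ccr1, Ccr2, Ccrl2, Cxcr2, Cx3cr1 and Cxcr3, and no neighbours overlapped. Mean levels ran from 371.3 ± 24.4 CPM per kb for Ccr7 through 49.0 ± 2.87 for Cxcr4, 33.9 ± 2.18 for Ccr1, 16.3 ± 3.42 for Ccr2 and 1.74 ± 0.459 for Ccrl2 down to 0.0183 ± 0.0189 for Cxcr3 (SD, n = 3). After LPS, Ccrl2 had moved up to 27.8 ± 5.04 CPM per kb, a level whose range overlapped that of Ccr1 at 27.9 ± 8.24. Cxcr4 followed at 10.8 ± 1.18, and Ccr2 had dropped below 1, to 0.335 ± 0.101 CPM per kb. Cx3cr1, Cxcr3 and Cxcr2 came last, each overlapping its neighbour in that order. Under the knockout label Ccrl2, Ccr1 and Cxcr4 overlapped in turn after LPS, at 27.4 ± 1.69, 25.4 ± 5.60 and 17.0 ± 6.52 CPM per kb. Of the summed level of the 8 genes per kilobase, Ccr7 made up 78.5 ± 1.19% in naive and 91.7 ± 1.82% in LPS wild-type cells.

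The ratio of Ccr7 counts to Ccr2 counts within a library does not depend on how libraries are scaled. It was 5.23, 7.19 and 8.14 in naive wild-type and 680.5, 919.7 and 480.2 in LPS wild-type libraries. In libraries labelled knockout it was 6.24, 39.4 and 5.26 when naive and 515.4, 727.4 and 549.7 after LPS. Naive library 3 labelled knockout thus lay between the other naive and the LPS libraries, as it did for its maturation markers. That library also had the highest naive Ccrl2 (9.02 CPM) and the lowest naive Ccr1 (54.2 CPM). Its summed macrophage markers were 1425 CPM, against 3201 to 4507 CPM in the other naive libraries. The part that such differences between cultures had in these values was not tested.

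**Figure D3:**
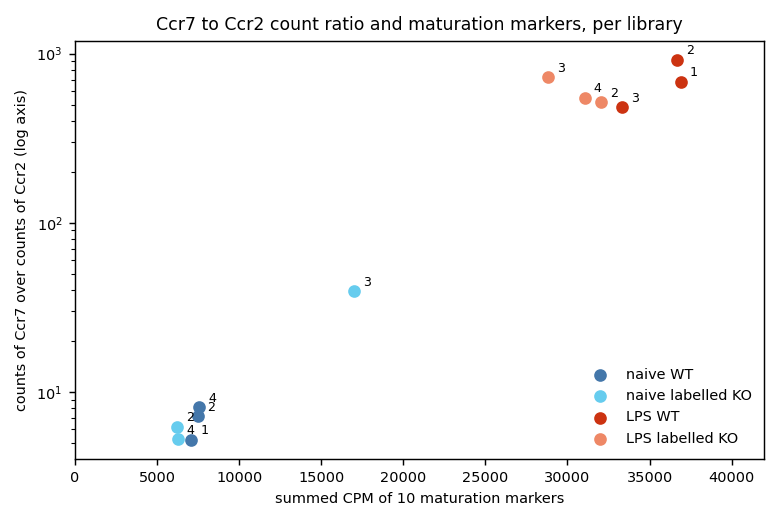
Ccr7 counts over Ccr2 counts (log axis) against the summed CPM of 10 maturation markers (linear axis) in each dendritic cell library, numbered by replicate. The 5 lower naive libraries lie between 5.23 and 8.14, the LPS libraries between 480.2 and 919.7, and naive library 3 labelled knockout at 39.4.

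Whether loss of Gpr34 goes with altered receptor expression was asked in naive and in LPS-treated cells. In naive cells Ccr7 averaged 734.5 ± 48.3 CPM in wild-type and 777 ± 233 CPM under the knockout label, and in LPS-treated cells 1468 ± 75.8 and 1589 ± 367 CPM. Ccr2 averaged 110.4 ± 23.1 and 83.8 ± 49.7 CPM in naive cells. The ranges of wild-type and labelled knockout libraries overlapped for all 7 members tested in naive cells and for all 7 in LPS-treated cells. Ranges that do not overlap were found for 13.1% of all genes in naive cells, 6.59% higher and 6.48% lower, and for 17.5% in LPS-treated cells, 8.97% higher and 8.57% lower. No member was called in either comparison or in the interaction of label and LPS, by edgeR's quasi-likelihood test, DESeq2 or limma voom. Of all genes 0% were called by edgeR in each of these 3 comparisons, while 6.71%, 11.3% and 4% had an unadjusted p under 0.05. DESeq2 called 46 genes higher and 30 lower in naive cells, 221 and 151 in LPS-treated cells, and 10 and 11 for the interaction; limma voom called 1 gene in naive cells and 0 in the other two comparisons.

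The member nearest to a difference between labels was Cxcr4 in LPS-treated cells, with 19.3, 17.5 and 21.8 CPM in wild-type and 20.9, 43.8 and 27.4 CPM under the knockout label. The ranges of Cxcr4 overlapped, and the log2 fold change was 0.65 (95% interval 0.17 to 1.14, unadjusted p = 0.0128, adjusted p = 0.320 in edgeR's quasi-likelihood test). It rested on LPS library 3 labelled knockout, one of those with Gpr34 reads: without it the Cxcr4 value was 0.31, and without all 3 such libraries 0.08. For Ccr7 the 95% interval of the label difference was -0.36 to 0.52 in naive cells and -0.32 to 0.55 after LPS. For Ccr2 it was -1.33 to 0.53 and -0.85 to 1.33. Differences within those bounds were not excluded. The interaction was 0.59 for Cxcr4 (SE 0.31) and 0.64 for Ccr2 (SE 0.65), both with an adjusted p of 0.9999.

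In the spleen, an organ of B cells, T cells, red cell precursors and myeloid cells, the same genes stood in another order. Per kilobase Cxcr4 led with 53.9 ± 13.3 CPM per kb in wild-type (SD, n = 10), followed by Ccr7 at 19.9 ± 1.14, Cxcr3 at 5.07 ± 1.27 and Ccr2 at 3.53 ± 0.428. The ranges of Cxcr3 and Ccr2 overlapped. Cxcr2, Ccr1, Cx3cr1 and Ccrl2 came next, each overlapping its neighbour in that order. Levels were not tested between spleen and dendritic cells, which were fitted apart. Gapdh, a gene of all cells, stood at 2.26 to 8.82 CPM in dendritic cells and 49.8 to 160 CPM in spleens, and the cause of its low level was not tested. Side by side, Cxcr3 reached 6.09 to 12.8 CPM in wild-type spleens against at most 0.212 CPM in a dendritic cell library, and Ccrl2 1.35 to 2.39 CPM.

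Between genotypes, Ccr7 in spleen had a lowest, median and highest value of 36.5, 39.0 and 43.0 CPM in wild-type and 30.9, 47.4 and 58.9 CPM in knockout. The knockout spleens lay on both sides of the wild-type range, with 6 above it and 2 below. The log2 fold change of Ccr7 was 0.22 (95% interval 0.02 to 0.43, unadjusted p = 0.0321, adjusted p = 0.246, edgeR's quasi-likelihood test), which did not pass. A fit added later left out knockout spleens 4, 6 and 9, which had been seen to stand apart in composition, without a rule set beforehand. Spleens 4 and 9 are the lowest and highest for Ccr7, and knockout spleen 3, with the highest pancreas marker sum (7083 CPM), was kept. In that fit Ccr7 was 0.27 with an adjusted p of 0.0766 in edgeR's quasi-likelihood test. Spleen 4, the lowest for Ccr7, had a red cell marker sum of 286000 CPM, against 42100 to 134900 CPM in the other knockout spleens. The summed maturation markers also moved with Ccr7: knockout spleens 9 and 7, the highest for Ccr7, had the highest sums, 840.3 and 827.3 CPM, and spleen 4 the lowest, 486.9 CPM, against 555.0 to 712.6 CPM in wild-type. The summed B cell markers did likewise, with 3594, 3435 and 2245 CPM in knockout spleens 9, 7 and 4, against 2769 to 3337 CPM in wild-type. Over the 19 spleens the Pearson correlation of Ccr7 on the log2 scale was 0.78 with the maturation markers. It was 0.596 with the B cell, 0.563 with the dendritic cell and 0.29 with the T cell markers. The part of these cell types in the Ccr7 values was not tested.

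The other members also overlapped between spleens of both genotypes. Cxcr4 ranged from 59.5 to 136.4 CPM (median 93.6) in wild-type and from 56.7 to 114.1 CPM (median 84.5) in knockout. Ccr2 ranged from 18.7 to 28.4 CPM (median 23.5) and from 14.2 to 39.8 CPM (median 20.3), the highest being knockout spleen 6, which also had the highest sum of macrophage markers, 1884 CPM. Ccrl2 had the largest estimate, 0.34 on the log2 scale (95% interval -0.09 to 0.78, adjusted p = 0.407, edgeR's quasi-likelihood test), with 1.02 to 3.66 CPM in knockout spleens. The log2 fold change of Ccr2 was -0.15 (adjusted p = 0.641), and -0.31 with an adjusted p of 0.115 without knockout spleen 6, its highest. Those of Ccr1, Cx3cr1, Cxcr2, Cxcr3 and Cxcr4 were 0.13, 0.04, 0.25, 0.05 and -0.12. None of the 8 members was called, against 0.177% of 20371 genes tested, 0.0982% as higher and 0.0785% as lower. That count rests on knockout spleen 6: without it 524 genes were called higher and 527 lower, with none of the members among them. Ranges that do not overlap were found for none of the members and for 0.0736% of genes, 0.0491% higher and 0.0245% lower. Without composition factors the median of all genes moved to -0.11, and Cx3cr1 and Cxcr3 then had values of -0.07 each.

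**Figure D4:**
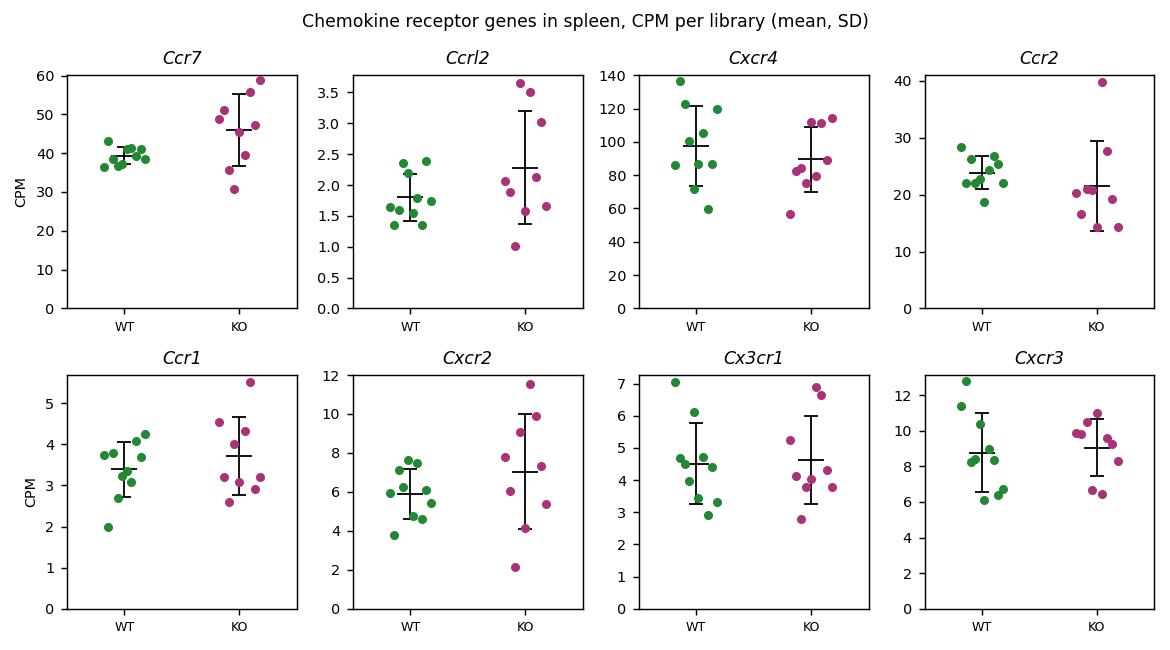
Level of each receptor gene in CPM (linear axes from 0) in 10 wild-type and 9 knockout spleens; points are spleens, and lines are the group mean with its SD. The genotypes overlap for all 8 genes, and Ccr7 spreads from 30.9 to 58.9 CPM in knockout against 36.5 to 43.0 CPM in wild-type.

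The ligands of these receptors were counted in the same libraries. Of 24 ligand genes listed, 21 had reads and 19 were tested in dendritic cells. After LPS 14 were higher and 1 lower in wild-type, beside 18.1% and 15.8% of all genes, and 14 higher and 2 lower under the knockout label, beside 15.3% and 13.4%. Their median log2 fold change was 4.82 in wild-type and 3.71 under the knockout label, beside -0.03 for all genes. The list holds genes known to respond to LPS, and it was compiled with earlier results of these data known.

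Ccl2, a ligand of Ccr2, went from 35.8 ± 3.84 up to 525.4 ± 151 CPM in wild-type (SD, n = 3), or 3.88 on the log2 scale (SE 0.39, adjusted p = 3.51e-05, edgeR's quasi-likelihood test). Ccl3, a ligand of Ccr1, rose from 18.1 ± 1.37 to 740.5 ± 177 CPM. Ccl6, another ligand of Ccr1, was far more abundant in naive cells and fell, from 2790 ± 65.9 to 1258 ± 304 CPM in wild-type (log2 fold change -1.15, SE 0.35) and from 2645 ± 1252 to 1011 ± 338 CPM under the knockout label (-1.39, SE 0.36). Cxcl10, a ligand of Cxcr3, went from 2.85 ± 0.384 up to 348.0 ± 62.8 CPM, or 6.93 on the log2 scale (SE 0.25); Cxcr3 itself had at most 7 counts in these cells. Cxcl1 and Cxcl2, ligands of Cxcr2, had log2 fold changes of 6.02 and 6.39. Cx3cl1 rose less, from 63.7 ± 2.74 to 109.0 ± 8.57 CPM, while Cx3cr1 averaged at most 0.70 CPM in a group of dendritic cells.

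Ccl19, a ligand of Ccr7, had 0 counts in all 12 dendritic cell libraries and 177.8 ± 53.5 CPM in wild-type spleens (SD, n = 10). The sources used here do not say which annotation was counted or how multi-mapped reads were treated, and Gapdh is also very low in the dendritic cell libraries, so Ccl19 is only listed at 0 there. Cxcl12, the ligand of Cxcr4, stood at 1.69 ± 0.773 CPM in naive and 0.583 ± 0.216 CPM in LPS wild-type cells (log2 fold change -1.53, adjusted p = 0.117, edgeR's quasi-likelihood test), and at 177.3 ± 38.2 CPM in wild-type spleens. Under the knockout label Cxcl12 fell from 1.22 ± 0.794 to 0.216 ± 0.144 CPM (log2 fold change -2.46, SE 0.73, adjusted p = 0.0279, edgeR's quasi-likelihood test), with 2 to 16 counts per library after LPS; the interaction was not called. Rarres2, which encodes the Ccrl2 ligand chemerin, averaged 1.99 ± 0.0621 and 2.20 ± 0.403 CPM in naive and LPS wild-type cells and 40.3 ± 12.4 CPM in wild-type spleens. Ccl21a, Ccl21b and Ccl21c were not analysed here.

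**Figure D5:**
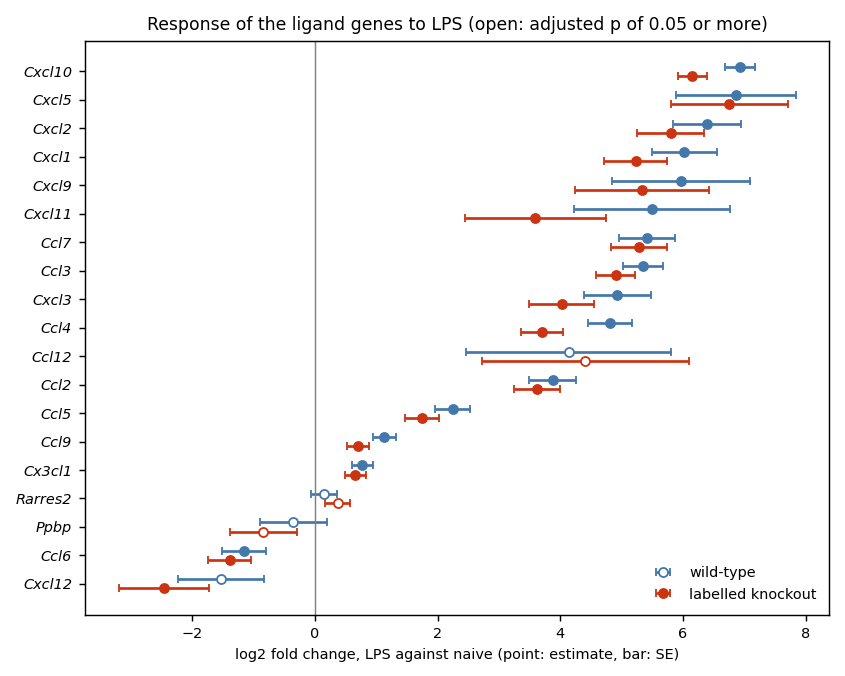
Log2 fold change of 19 ligand genes between LPS-treated and naive dendritic cells (points, with SE as bars) in wild-type and in libraries labelled knockout; filled points have an adjusted p under 0.05. Cxcl10 leads at 6.93 in wild-type, and Ccl6 and Cxcl12 lie below 0 under both labels.

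Of 17 other chemokine receptor genes, 10 were tested in dendritic cells, and after LPS 2 were higher and 1 lower in wild-type, and 2 higher and 0 lower under the knockout label. These shares are near or below those of all genes, 33.9% in wild-type and 28.7% under the knockout label. The median log2 fold change was 0.45 and 0.15. Ccr4, the receptor for Ccl17 and Ccl22, went from 0.930 ± 0.294 up to 14.6 ± 1.38 CPM in wild-type, or 3.97 on the log2 scale (SE 0.30). Cxcr5, which guides cells into B cell follicles, went from 0.443 ± 0.0660 up to 2.32 ± 0.686 CPM, or 2.38 on the log2 scale (SE 0.39). Ccr6, a receptor of immature dendritic cells for Ccl20, had 99 to 180 counts in naive and 0 to 9 in LPS wild-type libraries. Its call was made in wild-type (adjusted p = 0.0102, edgeR's quasi-likelihood test) and not under the knockout label (adjusted p = 0.113), and the interaction, 2.32 (SE 1.49), was not called.

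Of 22 genes for proteins that carry or end the receptor signal, 8 were higher and 6 lower after LPS in wild-type, and 7 higher and 5 lower under the knockout label. Among all genes 33.9% were called in wild-type and 28.7% under the knockout label. The median log2 fold change of the 22 was 0.18 and 0.24, with members on both sides. Rgs1, which speeds the shut-off of G proteins, had the steepest rise of those named, from 184.0 ± 29.2 to 889.9 ± 156 CPM in wild-type (2.27 on the log2 scale, SE 0.37) and by 1.73 (SE 0.36) under the knockout label. Rgs18, of the same family and named after its values were seen, had 97 to 150 counts in naive and 0 to 19 in LPS wild-type libraries (log2 fold change -3.47, SE 1.09, adjusted p = 0.0296, edgeR's quasi-likelihood test); under the knockout label it was not called (-2.73, adjusted p = 0.0723), and the interaction was not called (0.74, SE 1.43). Arrb1, an arrestin that uncouples receptors, fell by 1.74 in wild-type and by 1.15 under the knockout label on the log2 scale (SE 0.16 each). Gnb1, a G protein beta subunit, was higher by 0.64 and 0.51 (SE 0.07 each), and the small GTPase gene Rac2, which drives movement of leukocytes, by 0.83 and 0.62 (SE 0.13 each).

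For members with a mean of at least 1 CPM, the 3 named genes with the highest Pearson correlation of log2 CPM over the 12 dendritic cell libraries were listed as a description. These libraries differ in LPS treatment and depth, which many genes follow, and the measure says nothing of shared function. Ccr2 was followed most closely by Crat, Clec10a and Snx5 (r = 0.994 each), of which Clec10a encodes a lectin of dendritic cells and macrophages. Ccr7 was followed by Copg1 (r = 0.991), Nub1 and Sec23b, Cxcr4 by Naxe (r = 0.990), Rragd and Nrep, and Ccrl2 by Blnk (r = 0.993), Ppfia3 and Eif6. Ccr1, whose naive and LPS libraries overlapped, was followed by Hmgb1-ps5 (r = 0.968), Ly6e and Ctss.

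Over the 19 spleens the correlations were lower and the genes differed. Ccr7 was followed by Sbk1 (r = 0.864), H2-Eb2 and Nfkbie, and Cxcr4 by Tsc22d3 (r = 0.848), Cd69 and Sesn1. Ccr2 was followed by Fcgr3 (r = 0.824), Slc12a2 and Vcam1, and Cxcr2 by Cd300lb (r = 0.842) and Il22ra2. Cxcr3 was followed by Ptk2b (r = 0.859), Surf4 and Wdr1, Cx3cr1 by Top2b (r = 0.904), Grsf1 and Tmf1, Ccrl2 by Memo1 (r = 0.928), Nudt4 and Map2k3, and Ccr1 by Igf1 (r = 0.719) and Csf3r. These spleens share differences in red cell and pancreas transcripts and in depth.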

How the data were processed

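The authors deposited 1 file of whole-number read counts per Ensembl gene for each of the 31 libraries, not normalized. Per the submitters' processing notes, the build was mm9 and the tools were DESeq, bedtools, SAMtools, Bowtie and TopHat 1.3.3, without roles. Strand use, annotation release and multi-mapped reads: not given in the sources used here. Groups came from the labels. A gene with no line in a file was set to 0, and 26090 of 29120 IDs were named. Gene places were found by Ensembl ID in GENCODE M21 (GRCm38), not in mm9. Of counts up to 200, 57.8 to 62.1% per library were even, so counts are not all independent molecules, and a floor of 3 counts covers counting error only.

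The 12 dendritic cell libraries (16965 genes, 8 residual degrees of freedom) and 19 spleens (20371 genes, 17) were fitted apart with edgeR 4.0.16 in R 4.3.3: filterByExpr with a minimum count of 10, TMM factors, robust quasi-likelihood F-test and Benjamini-Hochberg adjustment over all genes at 0.05. The SE is the log2 fold change over the square root of F, and CPM use TMM-scaled library sizes. Levels per kilobase used exon lengths of GENCODE M21. Correlations used log2 CPM with a prior count of 2. The fit was tested on simulated counts. Alternatives were DESeq2 1.42.0, limma voom (limma 3.58.1) with sample weights, RLE factors or none, every gene kept, a fit of the compared libraries alone, a replicate block, and leaving out each library; added later were fits without 3 libraries labelled knockout with over 100 Gpr34 counts and without knockout spleens 4, 6 and 9. The members, lists and tests were chosen with earlier results of these data known. All 8 members are named, with their ligands beside them, up to 4 called genes with the smallest p per other list and comparison, and the 3 closest correlates, leaving out clone and predicted names; some correlates are not reported here. Gapdh and marker genes were named for checks.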

Additional observations from a re-analysis of the deposited data

How the results depend on the processing

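The calls of Ccr2, Ccr7, Cxcr4 and Ccrl2 after LPS held, with their direction, under both labels in every alternative run. Cxcr2 crossed the threshold: its wild-type value was called under DESeq2 (-2.87), voom (-3.20), RLE factors (-2.84), no composition factors (-3.21), with only the 6 libraries compared (-2.83) and without the 3 libraries with Gpr34 reads (-2.83), and its labelled knockout value was lost under voom (-2.84) and without those 3 libraries (-4.19). When single libraries were left out, its value lay between -4.30 and -2.27 in wild-type, called without LPS wild-type library 2 or without naive library 3, LPS library 3 or LPS library 4 labelled knockout. Under the knockout label it lay between -4.33 and -2.41, and the call was kept only without naive library 3 or LPS library 4 labelled knockout or LPS wild-type library 2 or 3. The cause was not tested. Without composition factors the calls over all genes went from 3064 higher and 2679 lower to 1599 and 6128 in wild-type, from 2601 and 2274 to 1441 and 4986 under the knockout label, and from 20 and 16 to 7 and 183 in spleen; DESeq2 called 442 and 431 in spleen, voom 383 and 407, and the fit without knockout spleens 4, 6 and 9 called 179 and 118.

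All values that changed sign were uncalled. For labelled knockout against wild-type in naive cells they were, under voom, Ccr7 and Ccrl2 (-0.15 each) and, without the 3 libraries, Ccr1 0.07, Ccr2 0.02, Ccr7 -0.19 and Ccrl2 -0.14. In LPS-treated cells they were Ccr1 0.04 and Ccrl2 0.05 under voom, Ccrl2 0.04 without composition factors, and Ccr7 -0.19, Cx3cr1 0.20 and Ccrl2 0.03 without the 3 libraries. For the interaction they were Cxcr2 0.35 and Ccrl2 0.19 under voom, and Ccr1 -0.11, Cx3cr1 0.46, Cxcr4 -5.1e-03 and Ccrl2 0.16 without the 3 libraries. Without composition factors Cx3cr1 was -0.07 for LPS under the knockout label, and Cx3cr1 and Cxcr3 were -0.07 in spleen; the cause was not tested for any of these.

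Leaving out single libraries, ranges that crossed 0 were, in naive cells, Ccr1 -0.41 to 0.07, Ccr2 -0.71 to 0.01, Ccr7 -0.20 to 0.21, Ccrl2 -0.14 to 0.63, Cx3cr1 -0.45 to 0.46 and Cxcr4 -0.04 to 0.12; in LPS-treated cells Ccr1 -0.32 to 0.11, Ccr7 -0.09 to 0.23, Ccrl2 -0.15 to 0.11 and Cxcr2 -2.16 to 0.50; for the interaction Ccr1 -0.19 to 0.29, Ccr7 -0.17 to 0.33, Ccrl2 -0.64 to 0.13 and Cxcr2 -1.51 to 1.14; in spleen Cx3cr1 -0.05 to 0.13 and Cxcr3 -0.0024 to 0.12; and for LPS under the knockout label Cx3cr1 -0.57 to 0.68.

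Deviations of same-numbered dendritic cell libraries correlated at -0.089 to 0.075, and pairs of different numbers were not compared. For spleens the correlations were -0.078 to 0.29, with 5 of 9 same-numbered pairs over 0.1. Under the knockout label the libraries numbered 3 were highest for Ccr7, at 1042 CPM when naive and 2004 CPM after LPS. They were lowest for Ccr1, at 54.2 and 53.9 CPM. For Ccr2 and Ccrl2 they lay at opposite ends: Ccr2 was lowest when naive and highest after LPS, and Ccrl2 the reverse. Whether same-numbered dendritic cell libraries shared an animal or culture, or same-numbered spleens a day or batch, was not tested. With a replicate block 4 members were called after LPS in wild-type and 5 under the knockout label, as without it. The block turned the uncalled values of Ccr7 (-0.05), Cx3cr1 (0.28) and Cxcr4 (-0.03) in naive cells, Ccrl2 (8.1e-04) in LPS-treated cells, Ccr1 (-0.11) for the interaction and Cx3cr1 (-0.02) in spleen. Depth limits Cxcr3, Cxcr2 and Cx3cr1 in dendritic cells, whose counts per library did not exceed 7, 95 and 47.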
